A study of Mus musculus with 8 samples.

Results

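The 8 genes described here encode homing and adhesion receptors of blood cells: *Cxcr4*, *Ccr7*, *S1pr1*, *Itga4*, *Itgb1*, *Itgal*, *Selplg* and *Cd44*. Their chromatin accessibility was taken from ATAC-seq, in which the transposase Tn5 cuts open DNA, of MPP3 and MPP4 cells, the myeloid-biased and lymphoid-biased multipotent progenitors of mouse bone marrow. A peak could be counted to a gene if its center was inside the gene, at most 20 kb before its start or at most 10 kb past its end. Where several genes qualified, the peak went to the gene with the transcript start, end or midpoint closest to its center. A peak inside a gene could thus be counted to another gene. This rule gave 49 of 87642 MPP3 peaks and 52 of 86952 MPP4 peaks. All 8 genes had at least 3 peaks in each cell type.

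The study compared *Ebf1* WT and *Ebf1* KO mice, with 8 libraries from 5000 sorted cells each, 2 per genotype in either cell type. MPP3 cells were sorted as LSK CD150- CD48+, and MPP4 cells also as Flt3+. By the sample labels, all mice were C57BL/6 and carried floxed *Ebf1* alleles (Ebf1fl/fl). The paper differs for the WT mice, which it defines as Ebf1wt/wt with Tie2Cre, and its methods name flox/flox or +/Cre littermates as controls. The labels are followed here. The WT mice were labelled Tie2Cre +/+ and the KO mice Tie2Cre +/cre, so the KO mice carried a Cre driven by the *Tie2* (*Tek*) promoter, which is active in endothelial as well as hematopoietic cells. Mice were 8 wk old for the MPP3 WT and MPP4 KO groups, 8 or 9 wk for the MPP3 KO group and 9 wk for the MPP4 WT group, where 1 of the 2 mice was male and all other mice were female. The deposited level of a peak is 1 mean log2 CPM (CPM, counts scaled to library size) over the 4 libraries of a cell type, with both genotypes pooled. The levels therefore have no SD and no test, they say nothing of the genotypes, and any difference between MPP3 and MPP4 below is a description.

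As background, CXCR4 holds progenitors in the marrow by binding the chemokine CXCL12, S1PR1 draws cells toward the sphingosine-1-phosphate of blood and lymph, and CCR7 guides lymphoid cells and thymus-seeding progenitors toward CCL19 and CCL21. The integrin chains α4 (*Itga4*) and β1 (*Itgb1*) form VLA-4, which binds VCAM1, and αL (*Itgal*) pairs with β2 to form LFA-1, which binds ICAM1. PSGL-1 (*Selplg*) carries the glycans that selectins on the vessel wall bind, and CD44 binds hyaluronan.

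A few sequences show the sites that the results turn on, all 5′ to 3′, in lower case with matches to 10 searched motifs in capitals. Both strands were searched for TCCCNNGGG or CCCNNGGGA as EBF1 letters, CAGGTG and the variant CAGCTG as E-boxes, GAGGAAGT for PU.1, TGTGGT for RUNX, AGATAA for GATA factors, TTGCNNAA for C/EBP, TGANTCA for AP-1, TGTTTAC for FOXO, GGGCGG for SP/KLF and the consensus of NF-kB. The 2 promoters below are the 250 bases before the RefSeq start, on the strand of the gene (GRCm38.p6), of the chemokine receptor and of the integrin chain with the highest promoter peaks. *Cxcr4* (chr1:128592300-128592549, minus strand) held 3 SP/KLF matches, and *Itga4* (chr2:79255176-79255425, plus strand) held an E-box, an SP/KLF and a RUNX match. Of all 32851 RefSeq promoters of this length, 32.7% held an SP/KLF, 27.7% an E-box and 14.0% a RUNX match.

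*Cxcr4* promoter: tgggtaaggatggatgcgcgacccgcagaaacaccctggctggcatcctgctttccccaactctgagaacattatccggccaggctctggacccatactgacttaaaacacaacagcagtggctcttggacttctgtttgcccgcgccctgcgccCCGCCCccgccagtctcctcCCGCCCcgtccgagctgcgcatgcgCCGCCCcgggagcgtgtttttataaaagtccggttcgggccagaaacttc
*Itga4* promoter: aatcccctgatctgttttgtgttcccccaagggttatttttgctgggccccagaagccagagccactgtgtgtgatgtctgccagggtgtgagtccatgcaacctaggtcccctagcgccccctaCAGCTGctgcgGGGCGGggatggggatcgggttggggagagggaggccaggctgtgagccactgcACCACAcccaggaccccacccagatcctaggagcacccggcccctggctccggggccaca

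The next sequences are the central 200 bases of the distal peaks with the largest differences between the cell types (mm10, plus strand). These windows are centered on the MPP3 peak of each site. The *Itga4* intron, 15.0 kb from the gene start (chr2:79270276-79270475), and the *Cd44* intron at 72.2 kb (chr2:102829323-102829522) were the sites with the largest difference toward MPP3, and no motif was matched in either window, although the *Itga4* peak held 1 GATA and 1 C/EBP match outside it. The sites 16.0 kb upstream of *Cxcr4* (chr1:128608203-128608402) and downstream of *S1pr1*, 10.8 kb from its start (chr3:115704203-115704402), had the largest differences per kb toward MPP4, and held a RUNX and a PU.1 match. Of all MPP3 peaks of at least 200 bp, 24.7% held a RUNX and 8.18% a PU.1 match in their central 200 bases.

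*Itga4* +15.0 kb: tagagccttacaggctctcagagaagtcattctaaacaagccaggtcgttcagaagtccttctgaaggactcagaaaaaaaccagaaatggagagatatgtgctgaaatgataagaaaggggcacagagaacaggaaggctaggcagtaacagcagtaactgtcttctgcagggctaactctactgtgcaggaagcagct
*Cd44* +72.2 kb: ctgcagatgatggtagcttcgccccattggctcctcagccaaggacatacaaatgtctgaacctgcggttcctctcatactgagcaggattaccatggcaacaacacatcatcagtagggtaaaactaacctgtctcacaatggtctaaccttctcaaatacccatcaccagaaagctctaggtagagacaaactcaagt
*Cxcr4* -16.0 kb: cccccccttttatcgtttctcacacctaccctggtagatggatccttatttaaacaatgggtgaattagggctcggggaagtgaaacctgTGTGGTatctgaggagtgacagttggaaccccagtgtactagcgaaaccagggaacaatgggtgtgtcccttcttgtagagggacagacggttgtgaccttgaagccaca
*S1pr1* +10.8 kb: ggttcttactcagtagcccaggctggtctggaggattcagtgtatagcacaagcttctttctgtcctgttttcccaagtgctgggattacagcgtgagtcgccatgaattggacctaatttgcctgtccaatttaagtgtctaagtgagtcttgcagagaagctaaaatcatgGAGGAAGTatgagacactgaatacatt

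The last 2 are from the highest distal peak of *Cd44* in MPP4 and from the highest member peak found in MPP4 alone. The *Cd44* window (chr2:102815310-102815509), in an intron 86.3 kb from its start, is centered on the matched MPP3 peak. It held a GATA and a PU.1 match. Over its full length the MPP4 peak held 1 EBF1, 1 PU.1, 2 GATA and 3 AP-1 matches. The *Ccr7* window (chr11:99136563-99136762), 18.4 kb from the gene start and beyond the gene end, held 2 E-boxes and a RUNX match. The RUNX match and the second E-box there share bases.

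*Cd44* +86.3 kb: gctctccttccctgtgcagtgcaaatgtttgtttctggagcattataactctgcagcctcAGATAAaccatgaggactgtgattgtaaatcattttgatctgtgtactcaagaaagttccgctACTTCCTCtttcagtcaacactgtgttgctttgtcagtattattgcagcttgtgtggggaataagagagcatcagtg
*Ccr7* +18.4 kb: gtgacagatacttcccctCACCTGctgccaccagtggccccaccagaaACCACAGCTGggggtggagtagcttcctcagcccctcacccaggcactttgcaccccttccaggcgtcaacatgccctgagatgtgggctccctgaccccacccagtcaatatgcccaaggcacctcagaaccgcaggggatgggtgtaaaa

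The peaks of the 8 genes were of ordinary height, with a few strong promoters. Levels are given as log2 CPM per kb of peak, so that peaks of unlike length can be compared. The median level was 4.30 in MPP3 and 4.42 in MPP4 cells, against 4.11 and 4.15 over all peaks. In MPP3, 26 of 49 peaks (53.1%) were above the median of all peaks and 4 were above the 90th percentile. In MPP4, 32 of 52 (61.5%) were above the median and 9 were above the 90th percentile. As in all peaks, promoter peaks, with a center within 1 kb of a transcript start, were higher than the others, with medians of 5.72 against 3.97 in MPP3 and 6.07 against 4.20 in MPP4. Over all peaks the promoter medians were 5.04 and 5.04. Promoter peaks were 12 of 49 and 13 of 52, against 26.3% and 26.6% of all peaks. Most of the remaining peaks lay in introns (19 in MPP3, 18 in MPP4) or upstream (12 in each).

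**Figure D1:**
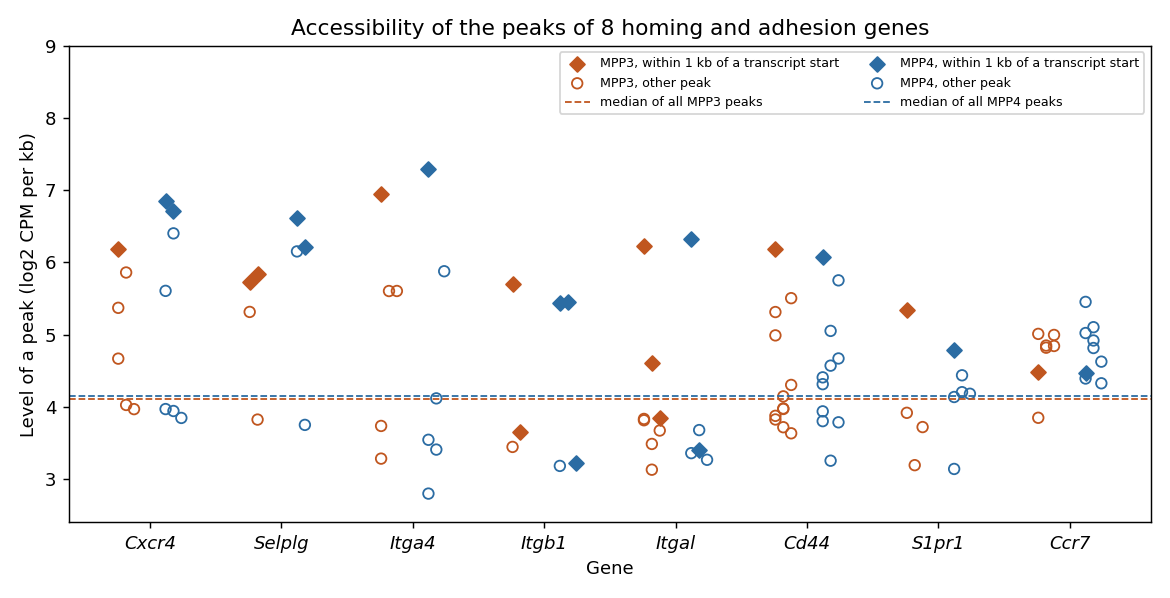
Level of each peak (log2 CPM per kb, vertical axis) for the 8 genes in MPP3 (49 peaks) and MPP4 (52 peaks). Filled diamonds are peaks within 1 kb of a transcript start, open circles are other peaks, and dashed lines are the medians of all peaks of each table (4.11 and 4.15). Each point is the authors' mean over 4 libraries, so no error bars are drawn, and the *Itga4* promoter is the highest point in both cell types.

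Summed over its peaks and divided by the length they cover, accessibility was highest at *Itga4*, with 81.3 CPM per covered kb in MPP3 and 78.8 in MPP4. In MPP3 it was followed by *Cxcr4* (48.4), *Selplg* (45.2), *Itgb1* (40.6), *Itgal* (33.4), *Cd44* (30.5), *Ccr7* (26.8) and *S1pr1* (21.5). In MPP4 the order was *Selplg* (70.7), *Cxcr4* (65.7), *Itgal* (39.7), *Cd44* (33.4), *Itgb1* (31.6), *Ccr7* (29.1) and *S1pr1* (19.6). *Itga4* was thus the highest and *S1pr1* the lowest in both cell types. No spread between libraries is at hand, so neighbors in either order cannot be told apart.

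The genes also differed in how their accessibility was spread. At *Itgb1* the highest peak held 92.0% of the summed CPM in MPP3 and 61.5% in MPP4, where the promoter was split into 2 peaks, and at *Itga4* it held 79.5% in MPP3 and 84.6% in MPP4. At *Ccr7* the highest peak held 20.7% of the summed CPM of 7 peaks and 20.5% of that of 9 peaks.

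**Figure D2:**
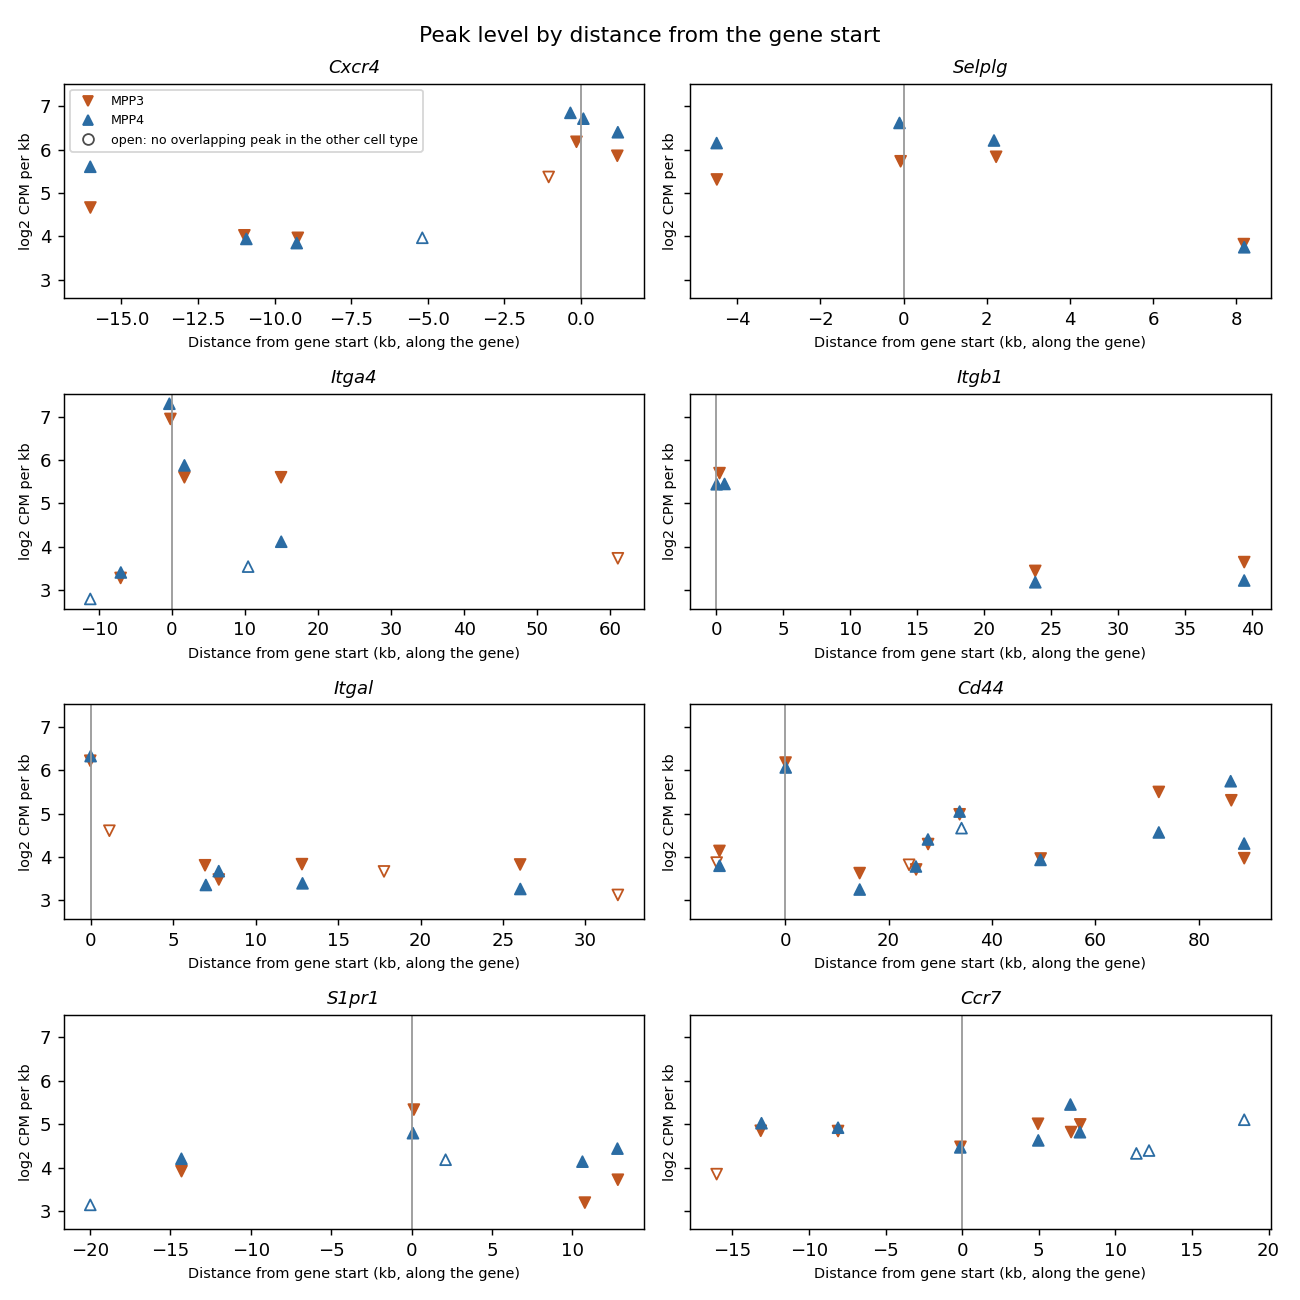
Level of each peak (log2 CPM per kb) by the distance of its center from the gene start (kb, negative is upstream) for each of the 8 genes. Downward triangles are MPP3 and upward triangles MPP4, and open symbols are peaks with no overlapping peak in the other cell type, such as the 3 MPP4 peaks 11.4 to 18.4 kb from the *Ccr7* start.

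Most sites were found in both cell types. A peak of the 8 genes overlapped a peak of the other cell type by at least 1 bp in 41 of 49 cases in MPP3 (83.7%, 95% Wilson interval 71.0 to 91.5%) and in 43 of 52 cases in MPP4 (82.7%, 70.3 to 90.6%). Over all peaks the shares were 75.7% and 76.7%. The remaining 8 MPP3 and 9 MPP4 peaks had no overlap, as did 24.3% of all MPP3 and 23.3% of all MPP4 peaks. The intervals cover counting error only.

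At the 41 matched sites, the MPP4 level minus the MPP3 level was centered on the median of all 66324 matched sites, since the tables were normalized separately. The level was higher in MPP4 at 23 and in MPP3 at 18 sites, with a median difference of 0.08 and a range from -1.47 to 0.96. Without the length correction the direction changed at 11 of the 41 sites, 20 were higher in MPP4 and 21 in MPP3, and the median was -0.01. None of the 41 sites was higher in MPP4 by 1 or more on the log2 scale, where 1.72% of all matched sites were, and 1 was higher in MPP3 by 1 or more, where 0.988% of all sites were. Both counts are near what the background gives for 41 sites. The middle of the distribution was also like that of all sites, with quartiles of -0.25 and 0.36 against -0.24 and 0.27.

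**Figure D3:**
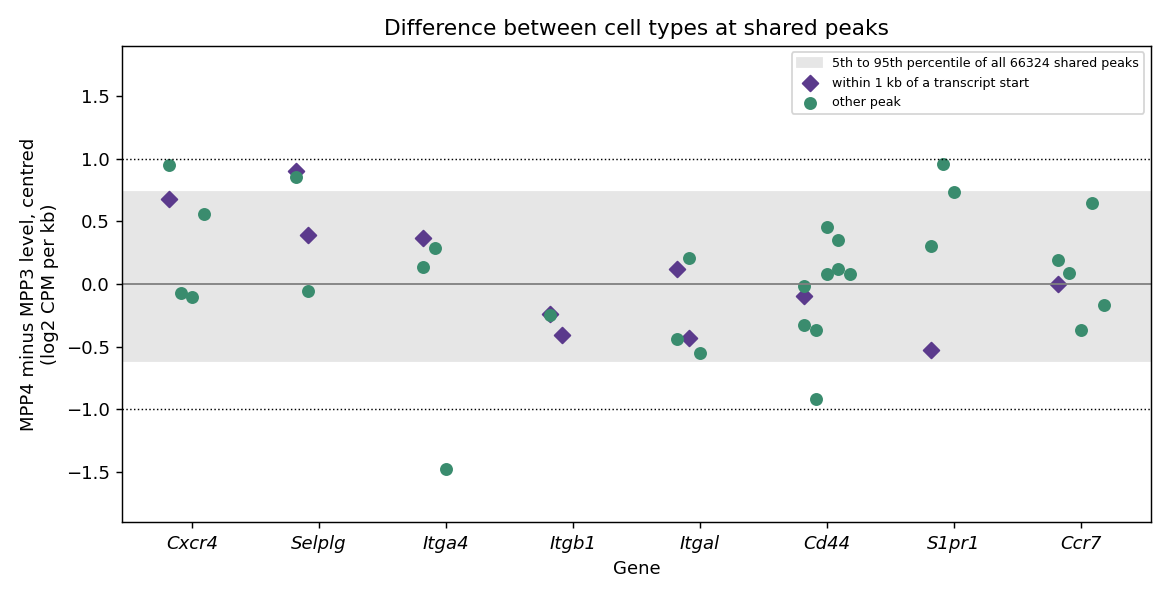
MPP4 minus MPP3 level (log2 CPM per kb, centered on the median of all matched sites) at the 41 matched sites, by gene. Diamonds are promoter peaks, circles other peaks, dotted lines mark a difference of 1 in either direction, and the gray band is the 5th to 95th percentile of all 66324 matched sites (-0.62 to 0.74). Only the *Itga4* intron, at -1.47, lies beyond a dotted line.

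*Cxcr4* had its highest sites in the gene and at its promoter, and 3 of its 5 matched sites were higher in MPP4. The promoter peak (chr1:128592122-128592766 in MPP3) had a level of 6.18 in MPP3. MPP4 had 2 peaks over the same stretch, at 6.85 and 6.72. The difference there was 0.68 per kb for the MPP4 peak with the larger overlap, but -0.75 without the length correction, which sets 1 part of the split site against the whole MPP3 peak. With both MPP4 peaks summed per covered kb it was 0.61, and they held 28.6 and 28.2 CPM against 46.9 CPM in MPP3. The intron site at 1.2 kb had a level of 5.86 in MPP3 and 6.40 in MPP4, a difference of 0.56 (90.1th percentile of all matched sites). The site 16.0 kb upstream had a level of 4.67 in MPP3 and 5.61 in MPP4, a difference of 0.95 (97.9th percentile). The sites 11.0 and 9.2 kb upstream differed by -0.07 and -0.11, the first of them by 0.37 without the length correction. A short peak 1.1 kb upstream, of 162 bp and a level of 5.37, was found in MPP3 only, and was the highest of the 8 unmatched MPP3 peaks. An MPP4 peak 5.2 kb upstream, at 3.97, had no MPP3 counterpart.

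*Ccr7* was open at its promoter and at many other sites of middling height. The promoter level was 4.48 in MPP3 and 4.46 in MPP4, a difference of 0.00, or -0.27 without the length correction. Its 3 intron sites and 2 upstream sites were above the promoter in level in both cell types. The highest site in MPP4 was the intron at 7.1 kb, with 4.82 in MPP3 and 5.45 in MPP4 and a difference of 0.65 (92.9th percentile). The highest site per kb in MPP3 was the intron at 5.0 kb, with 5.01 in MPP3 and 4.63 in MPP4 and a difference of -0.37. In MPP4 alone, 3 further peaks lay beyond the end of the gene, 11.4, 12.2 and 18.4 kb from its start, with levels of 4.33, 4.39 and 5.10. Their levels were at the 88.5th, 89.7th and 96.9th percentile of the 20277 MPP4 peaks without an MPP3 counterpart. The single *Ccr7* peak without a counterpart in MPP3, 16.0 kb upstream, had a level of 3.85.

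*S1pr1* had the lowest CPM per covered kb of the 8 genes, although its promoter level was above that of *Ccr7* in both cell types. The differences at the promoter and downstream sites of *S1pr1* had opposite signs. The promoter level was 5.34 in MPP3 and 4.79 in MPP4, a difference of -0.53 (7.49th percentile), the lowest among the 11 matched promoter peaks. The downstream sites 10.8 and 12.8 kb from the start had levels of 3.19 and 3.72 in MPP3 and 4.14 and 4.44 in MPP4, with differences of 0.96 and 0.73 (98.0th and 94.9th percentile). The first of these was the largest per-kb difference toward MPP4 at the 41 sites, close to that 16.0 kb upstream of *Cxcr4*. Without the length correction it was 0.68, below 1.07 at the *Cd44* intron at 86.3 kb. The upstream site at 14.3 kb had a difference of 0.30, and 2 peaks, at the upstream end of the window (3.14) and at 2.1 kb (4.18), were found in MPP4 only.

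*Itga4* held both the highest peak and the largest difference. Its promoter peak (chr2:79254628-79255859 in MPP3) had a level of 6.95 in MPP3 and 7.30 in MPP4, at the 97.6th and 99.0th percentile of all peaks, and a difference of 0.36, which was -0.05 without the length correction. A site at 1.7 kb, in a non-coding exon, had a level of 5.60 in MPP3 and 5.88 in MPP4, a difference of 0.29. In contrast, the intron at 15.0 kb (chr2:79270132-79270621 in MPP3) had 5.60 in MPP3 and 4.12 in MPP4. This difference of -1.47, 2.78-fold higher in MPP3, was at the 0.196th percentile of all matched sites, and was between -1.85 and -1.47 under every alternative computed. The site 7.0 kb upstream differed by 0.14, and the unmatched peaks were weak: 3.73 at 61.0 kb in MPP3, and 2.80 at 11.1 kb upstream and 3.54 at 10.4 kb in MPP4.

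*Itgb1*, the partner of *Itga4* in VLA-4, had little open chromatin outside the promoter at its gene start. An intron site at 39.4 kb, within 1 kb of another transcript start, was also counted as a promoter peak. The level at the gene start was 5.70 in MPP3, and MPP4 had 2 peaks there, at 5.44 and 5.45. The difference was -0.24, or -0.92 without the length correction, which leaves out the second MPP4 peak. Introns at 23.8 and 39.4 kb had levels of 3.44 and 3.65 in MPP3 and 3.18 and 3.22 in MPP4, with differences of -0.25 and -0.41. All 3 matched sites were thus lower in MPP4, although the last had 0.33 without the length correction.

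*Itgal* had a strong promoter at its gene start and weak introns. Peaks at 1.1 and 12.8 kb, in introns but within 1 kb of another transcript start, were also counted as promoter peaks. The level at the gene start was 6.22 in MPP3 and 6.33 in MPP4, a difference of 0.12. The introns at 6.9, 12.8 and 26.0 kb had differences of -0.44, -0.43 and -0.55, and the intron at 7.8 kb had 0.21. The first of these was 0.30 without the length correction. Their levels were between 3.48 and 3.84 in MPP3 and between 3.27 and 3.68 in MPP4, all below the medians of all peaks. MPP3 also had 3 peaks without a counterpart, with levels of 4.61 at 1.1 kb, 3.67 at 17.8 kb and 3.13 at 32.0 kb, the last in a coding exon, whereas every MPP4 peak of *Itgal* was matched.

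*Selplg* had 3 of its 4 sites higher in MPP4. The peak at the gene start (chr5:113832495-113832940 in MPP3) had a level of 5.73 in MPP3 and 6.62 in MPP4, a difference of 0.90 (97.4th percentile) and the largest of the 11 promoter peaks. The site 4.5 kb upstream had 5.31 in MPP3 and 6.15 in MPP4, a difference of 0.85 (96.8th percentile). A second transcript start at 2.2 kb had 5.84 in MPP3 and 6.21 in MPP4, a difference of 0.39, which was -0.02 without the length correction. The weak intron at 8.2 kb, with 3.82 in MPP3 and 3.75 in MPP4, differed by -0.06. All 4 sites of *Selplg* were found in both cell types, and the summed CPM was 68.6 in MPP3 and 107 in MPP4.

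*Cd44* had the most peaks, 12 in MPP3 and 11 in MPP4, along a gene of 90.5 kb. Its promoter level was 6.18 in MPP3 and 6.07 in MPP4, a difference of -0.10. Of its 10 matched sites, 5 were higher in each cell type. The intron at 72.2 kb had a level of 5.50 in MPP3 and 4.57 in MPP4, a difference of -0.92 (1.36th percentile), and the intron at 86.3 kb had 5.31 in MPP3 and 5.75 in MPP4, a difference of 0.45 (85.9th percentile) that was 1.07 without the length correction, as the MPP4 peak was 670 bp and the MPP3 peak 420 bp long. These 2 introns were the highest distal sites of the gene in MPP3, and their differences had opposite signs. The intron at 33.7 kb, with levels of 4.99 and 5.05, differed by 0.08, or -0.01 without the length correction. Unmatched peaks lay 13.2 kb upstream (3.87) and at 24.0 kb (3.82) in MPP3 and at 34.1 kb (4.67) in MPP4.

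Motif letters were counted in the peaks of the 8 genes and in all peaks. An EBF1 match was found in 4 of 49 MPP3 peaks (8.16%, 95% Wilson interval 3.22 to 19.2%, against 7.46% of all MPP3 peaks) and in 2 of 52 MPP4 peaks (3.85%, 1.06 to 13.0%, against 6.49%). These were the second start of *Selplg* and the *Cd44* intron at 86.3 kb in both cell types, and the *Itga4* promoter and the *Cd44* site at 88.8 kb in MPP3, where the matched MPP4 peaks were shorter or offset. PU.1 letters were in 9 of 49 MPP3 peaks (18.4%, 9.98 to 31.4%, against 9.56%) and 8 of 52 MPP4 peaks (15.4%, 8.01 to 27.5%, against 10.9%), among them the promoters of *Itga4*, *Itgal* and *Ccr7* and the *Cxcr4* intron at 1.2 kb. GATA letters were in 8 MPP3 peaks (16.3%, 8.51 to 29.0%, against 11.5%) and 10 MPP4 peaks (19.2%, 10.8 to 31.9%, against 9.85%), of which 5 and 6 were at *Cd44*. The lower bounds for PU.1 in MPP3 and GATA in MPP4 were above the shares of all peaks, and these were 2 of 20 shares examined. Peaks of 1 gene are not independent.

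E-boxes were in 16 MPP3 and 18 MPP4 peaks (32.7% and 34.6%, against 38.7% and 40.03% of all peaks), including 4 of 7 and 5 of 9 peaks of *Ccr7* and 3 of 4 peaks of *Selplg* in each cell type, but none at *Itgb1*. RUNX letters were in 17 peaks of each cell type (34.7% and 32.7%, against 30.8% and 33.0%), and in 7 of 8 MPP3 and 4 of 5 MPP4 peaks of *Itgal*. No peak held the NF-kB letters (0 of 49 and 0 of 52, upper bounds 7.27% and 6.88%, against 1.52% and 1.49% of all peaks). SP/KLF letters were in 7 peaks of each cell type (14.3% and 13.5%, against 21.8% and 21.96% of all peaks), and most numerous at the *Itgb1* promoter, with 10 matches in its MPP3 peak and 8 in the MPP4 peak at the start. A match is a run of letters, not a bound site.

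Beside the 8 genes, 57 other homing and adhesion genes were listed by role, of which 55 lie on the chromosomes that the tables cover (*Cxcr3* and *Cd99l2* do not). Of these 55, 45 had a promoter peak in MPP3 and 46 in MPP4. The 9 without 1 in either cell type were the receptors *Cxcr2*, *Ccr2* and *Ccr6*, the integrin *Itgae*, P-selectin (*Selp*) and 4 of the 8 genes for ligands of the vessel wall and stroma (*Vcam1*, *Sele*, *Ccl19* and *Ccl21a*). Those receptors, *Itgae* and *Selp* did have other peaks in both cell types. *Selp* had 5 in MPP3 and 6 in MPP4, with a summed CPM of 163 in each. *Vcam1*, *Ccl19* and *Ccl21a*, which encode ligands of VLA-4 and CCR7, had no peak at all. Other listed ligand genes went the other way. *Icam1* (the ligand of LFA-1), *Cxcl12* (the ligand of CXCR4) and *Madcam1* had promoter peaks in both cell types, and *Fn1* in MPP4 only. All 8 receptor genes had promoter peaks in both cell types.

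The promoter difference was above 0 at 18 and below 0 at 26 of the 44 listed genes with a matched promoter peak, with a median of -0.11. At the highest MPP3 promoter peak of the 8 genes it was above 0 at 5 and below 0 at 3, with a median of 0.06. Without the length correction it was above 0 at 1 and below 0 at 7 of the 8 genes, with a median of -0.19, and above 0 at 19 and below 0 at 25 of the listed genes, with a median of -0.05. Of these 7, *Cxcr4* (-0.75) and *Itgb1* (-0.92) set 1 part of a split MPP4 promoter against the whole MPP3 peak. *Selplg* (-0.02) and *Itga4* (-0.05) were near 0. With neither length correction nor centering, the median was -0.12 over all matched promoter peaks and -0.08 over the 11 of the 8 genes. With both, the median over all 19988 matched promoter peaks was -0.08. By role, the other integrins had 5 above and 5 below 0, the other chemokine and lipid receptors 4 and 6, and the genes of integrin activation, such as talin (*Tln1*) and kindlin-3 (*Fermt3*), 3 and 3. No listed promoter was higher in MPP4 by 1 or more, and 1 was higher in MPP3, that of *Itga2b* (αIIb, CD41), with a level of 6.67 in MPP3 and 5.64 at the MPP4 peak matched to it, a difference of -1.01. The difference was -0.86 without the length correction, and another promoter peak of *Itga2b* in MPP4 had a level of 6.20. Over all 250 matched sites of the listed genes, 2 (0.8%) were higher in MPP4 and 4 (1.6%) in MPP3 by 1 or more.

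**Figure D4:**
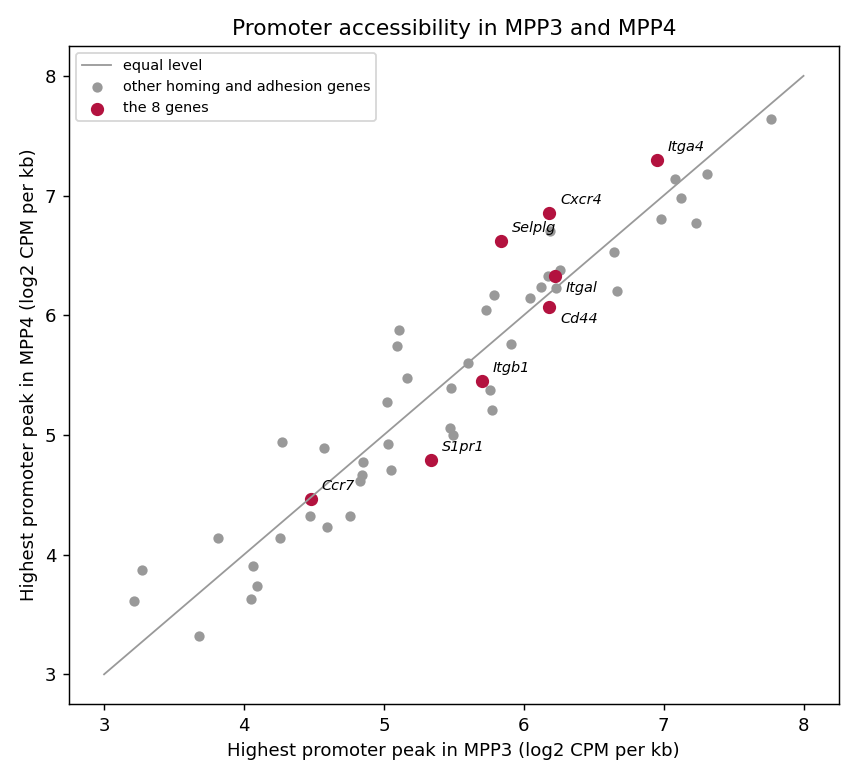
Highest promoter peak of each gene in MPP3 (horizontal) and MPP4 (vertical axis), both in log2 CPM per kb, for the 8 genes (red, named) and the other homing and adhesion genes with a promoter peak in both cell types (gray). The line marks equal levels, and *Cxcr4* (6.18 and 6.85) and *Selplg* (5.84 and 6.62) lie farthest above it among the 8 genes and *S1pr1* (5.34 and 4.79) farthest below, but the *Selplg* levels are of different sites (the start at 2.2 kb in MPP3, the gene start in MPP4).

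Of the 6 listed progenitor markers, 3 had high promoter levels, with 6.57 in MPP3 and 6.76 in MPP4 for *Kit*, 6.26 and 6.38 for *Cd34*, and 6.99 and 7.55 for *Flt3*, the receptor that separates the sorts, whose difference was 0.58. The other listed progenitor markers were low. *Slamf1* (CD150) had promoter levels of 3.71 and 3.88, and *Ly6a* (Sca-1) had 1 peak in each table, with 2.56 and 2.22 CPM. The *Cd48* promoter peak had 3.86 in MPP3. It was matched to an MPP4 peak at 3.96 that was not itself counted as a promoter peak. The difference there was 0.11, or -0.50 without the length correction. Among markers of other cells, *Ly6g* (granulocytes) and *Vcam1* (stroma) had no peak in either table, but others were open in both. The promoter levels were 6.96 and 7.27 at *Cd3d* (T cells) and 6.04 and 6.09 at *Pdgfra* (stroma), and the summed CPM was 77.9 and 86.5 at *Csf1r* (monocytes) and 46.3 and 39.6 at *Klf1* (erythroid cells). The B cell gene *Cd79a* had 2 peaks in MPP3 and none in MPP4, and the T cell gene *Cd3e* none in MPP3 and 3 in MPP4. The endothelial genes *Cdh5* and *Kdr* had 3 and 5 peaks in MPP3 and 7 each in MPP4, and the *Cdh5* promoter had levels of 4.40 and 5.61, a difference of 1.23 (99.4th percentile). The 6 listed endothelial and stromal genes had 20 peaks in MPP3 and 25 in MPP4, with a summed CPM per gene from 0 (*Vcam1*) to 37.6 (*Kdr*) and from 0 to 62.8. The 3 B cell genes had 5 peaks in each table, and the 3 T cell genes 4 and 8. Of the 16 matched sites of the 6 endothelial and stromal genes, 2 were higher in MPP4 by 1 or more. Their part in the differences at the 8 genes was not tested.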

How the data were processed

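ATAC-seq was from 8 libraries, 2 for each genotype of MPP3 and MPP4 cells, grouped by the sample labels. Per the study's methods and the submitters' processing notes, reads were trimmed with Cutadapt 2.10 and mapped to mm10 without duplicates, fragments were filtered with deepTools 3.3.2 to short, nucleosome-free ones, and peaks were called with MACS2 2.2.7.1 on merged replicates and merged over genotypes within a cell type. The authors deposited, for each peak and cell type, the mean log2 CPM over 4 libraries from edgeR 3.32.0, with a table and normalization for each cell type. Only this value and the positions were used. The log2 fold change, F, p-value and FDR columns hold the authors' own KO against WT comparison and were not used, so no genotype comparison was made. The depth of each library and the spread between libraries are not analysed here, and low levels are the least precise.

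Peaks were assigned with GENCODE vM21 (GRCm38), and log2 of the length in kb was subtracted. An MPP3 peak was matched to the MPP4 peak with the largest overlap. A difference counted from 1 on the log2 scale. The 8 genes and all lists were chosen with earlier results of these data known. Named peaks are each gene's promoter peak, its highest peak and its largest differences, with the unmatched peaks added after their values were seen. Of the other genes, those without a promoter peak or with a promoter difference of 1 or more were named. The examples *Tln1* and *Fermt3*, and the marker genes given, were also chosen after their values were seen. Promoter sequences came from RefSeq, which matched 4 of the 8 genes (not *Selplg*, *Itgal*, *S1pr1* and *Ccr7*). The windows of 200 bases came from the GRCm38 genome. Matching was tested on slightly shifted copies of MPP3 peaks with set differences, and on a toy set of intervals. Level differences at split peaks, or at peaks of clearly unlike length, were not part of that test. Alternatives changed the assignment, window, overlap, length correction, centering, promoter distance, motif window and a minimum of 1 log2 CPM. Python 3.11.15, numpy 2.4.6 and pandas 2.3.3 were used.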

Additional observations from a re-analysis of the deposited data

How the results depend on the processing

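Of 44 alternative values for 15 results, 37 were within 1.5 times the count or within the interval of the median. Without the length correction the median level was 2.44 in MPP3 and 2.74 in MPP4, since it is then per peak and not per kb. The median difference was then -0.01, against between 0.04 and 0.08 under the other alternatives, and 11 of 41 sites changed direction. In the central 200 bp, EBF1 letters were in 1 MPP3 and 0 MPP4 peaks. The count higher in MPP4 by 1 or more was 1 without length (*Cd44* at 86.3 kb) and 1 when centered within bins of level (*S1pr1* at 10.8 kb, 1.02), and the count higher in MPP3 was then 2 (*Itga4* at 15.0 kb, -1.57, and *Cd44* at 72.2 kb, -1.03). Summing all overlapping MPP4 peaks, an alternative chosen after seeing the data, left both counts at 0 and 1. Assignment gave between 40 and 63 peaks in MPP3 and between 42 and 65 in MPP4. No paired analysis was possible because the tables hold 1 pooled level per cell type. For the same reason, no library could be left out, and weak peaks have a precision that these values do not show.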
